A study of Mus musculus with 9 samples.

Results

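The genes described here make and regulate the machinery that fuses and divides mitochondria. They were taken by name from a table that covers 30128 genes in RPKM, the usual scaling of read counts by gene length and library total, and all 10 were found: Mfn1, Mfn2, Opa1, Oma1, Yme1l1, Dnm1l, Fis1, Mff, Mief1 and Mtfr1l. RNA came from mouse left ventricular tissue, in 9 libraries, 3 to a group. Control tissue was wild type, and its labels name no virus. The null virus group was db/db, a strain that lacks the signalling form of the leptin receptor and becomes obese and diabetic, given an adeno-associated virus without a gene (AAV9_null). The USP28 virus group was db/db given a virus of the same serotype that carries USP28, a deubiquitinase (AAV9_USP28). Per the series' design text, the cTnT promoter drives USP28 in that vector, and this promoter is active in cardiomyocytes. The null virus and USP28 virus groups each differ from control in both genotype and virus, which cannot be told apart. The labels give no age, sex, dose or time after injection. They do not say that each library came from a separate animal either, so a p-value here reflects only how far these libraries spread.

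Mitochondria in a cell join and split continually. Mitofusins 1 and 2 (Mfn1, Mfn2) are GTPases that fuse the outer membranes, and Opa1 is the dynamin-like GTPase that fuses the inner membranes and shapes the cristae. The proteases Oma1 and Yme1l1 cut Opa1 and so set its long and short forms. Fission needs the GTPase Drp1, encoded by Dnm1l, which is drawn to the outer membrane by the adaptors Mff, Mief1 and Fis1. Mtfr1l belongs to the mitochondrial fission regulator family. In the heart, loss of both mitofusins, or of Drp1, from cardiomyocytes leads to cardiomyopathy.

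The depth of the libraries, recovered from the step that 1 read makes in each column, ran from 35970332 to 56497662 counted reads. All 9 cardiomyocyte markers were detected in every library, with summed levels of 39100 to 43200 scaled RPKM in the control libraries, 33400 to 50800 (null virus) and 35700 to 40400 (USP28 virus), whereas 5 adipocyte markers summed to at most 0.409. The 4 atrial markers summed to 1440 in USP28 virus replicate 1 and to 80.2 to 340 in the other 8 libraries, with Sln at 0 in 7 libraries and Myl7 in 4. USP28 virus replicate 1 also had the lowest value of its group for every member except Mfn1 and Fis1. Without it, Opa1 and Dnm1l stayed called in USP28 virus against control (-0.68 and -0.85) and the mitofusins lost their calls in both comparisons of that group. Null virus replicate 1 stood apart. Its genes departed from their group means by 0.334 (log2) on average, and those of the other 8 libraries by 0.144 to 0.214. Its scaling factor of 0.836 was also the lowest, the others being 0.978 to 1.085. Each called result on the members is therefore also given without it. In scaled RPKM, the mouse Usp28 gene was at 12.5, 13.3 and 13.7 in the control libraries, 10.1, 7.57 and 7.78 in those with null virus and 9.89, 11.3 and 11.2 in those with USP28 virus. It was lower with null virus than in control (log2 difference -0.64, adjusted p = 0.0085 in limma), and the USP28 virus and null virus groups overlapped (0.36, adjusted p = 0.2; without null virus replicate 1, 0.48 and 0.017). No label or header says whether the vector's USP28 sequence would be counted as mouse Usp28.

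All 10 members passed the filter of 0.5 RPKM in at least 3 libraries, which 14104 genes passed. In control tissue the mitofusins were the most abundant, with means of 93.3 ± 2.10 scaled RPKM for Mfn2 and 55.3 ± 0.925 for Mfn1 (SD, n = 3). Scaled RPKM is RPKM after division by 1 factor per library. It is per kilobase of the deposited gene length, so the order of genes depends on that length (1714 bases for Fis1, 9757 for Mff). Whether the expressed transcripts have these lengths was not tested. Opa1 followed at 26.2 ± 1.08 and Dnm1l at 19.0 ± 0.428, then Fis1, Oma1, Mtfr1l, Yme1l1, Mff and Mief1. Mfn2 stood at percentile 97.4 of the tested genes and Mief1 (1.27 ± 0.0912) at percentile 30.5. Oma1 and Mtfr1l were the only neighbours in this order whose control libraries overlapped. In both db/db groups the order was the same except that Fis1 came above Dnm1l: their ranges did not overlap with null virus and overlapped with USP28 virus.

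**Figure D1:**
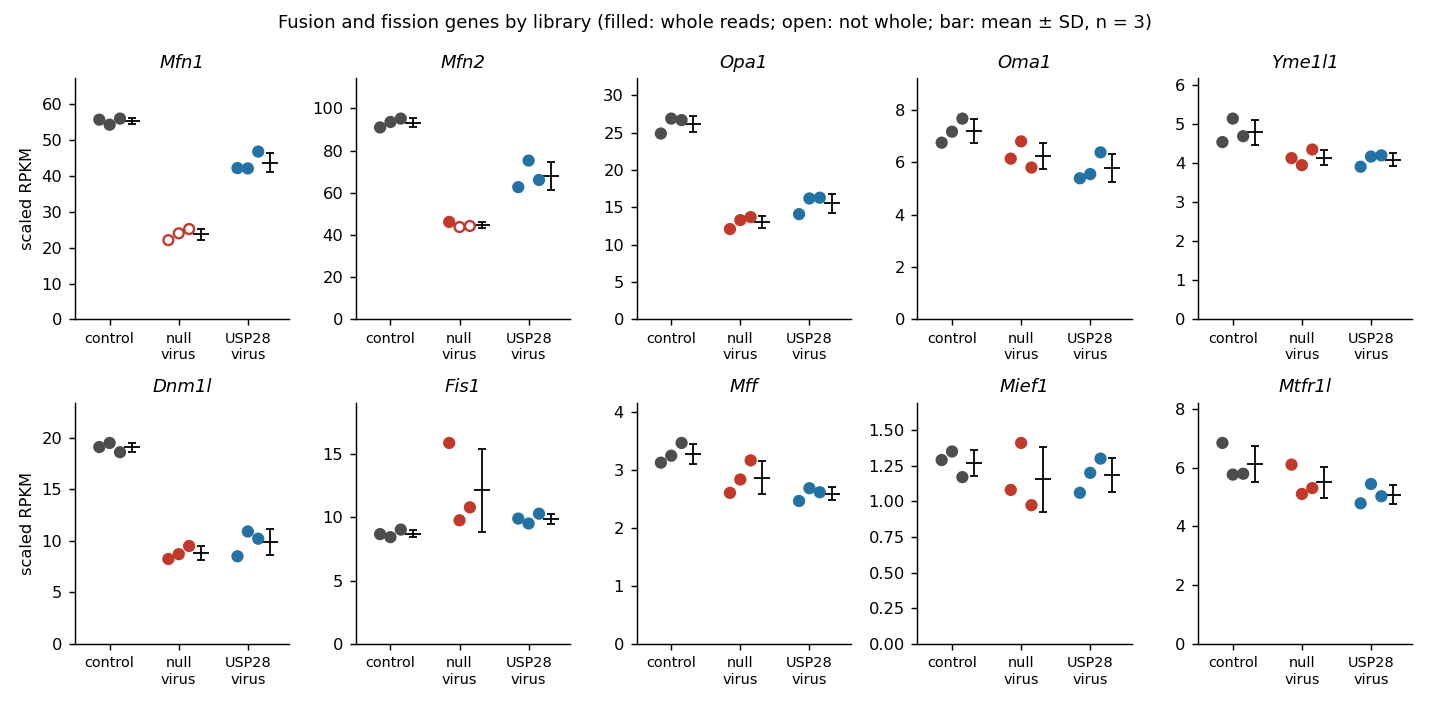
Level of each of the 10 genes in scaled RPKM (linear axis from 0, a separate scale per gene) in every library of the 3 groups, with group mean ± SD (n = 3); open circles are values that are not a whole number of reads. Mfn1, Mfn2, Opa1 and Dnm1l in control lie above every db/db library, and open circles occur for Mfn1 and Mfn2 with null virus alone.

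An RPKM value multiplied by gene length and divided by what 1 read is worth should give a whole number of reads. Over the whole table, 99.9839% of 204335 values above 0 did so within 0.01 read, and 33 values in 11 genes did not. Those genes were Acadl, Acadm, Acadvl, Cpt1b, Dgat2, Hdac3, Mfn1, Mfn2, Ppara, Pparg and Slc27a1. None of the 33 values was in a control library, 13 were with null virus and 20 with USP28 virus. Among the members, 5 of 90 values were not whole, all in mitofusins and all with null virus. Mfn1 gave 4071.55, 5842.11 and 6875.45 reads in null virus replicates 1, 2 and 3. Mfn2 gave 9042.26 and 10289.87 reads in replicates 2 and 3 and a whole 7222 in replicate 1. The other 85 member values lay within 4.9e-06 read of a whole number. Nothing in the labels or headers says how the 33 values came to be not whole, and this was not tested.

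The value of 1 read also fixes a library's total, which can be set against the sum of its genes. In the 3 control libraries the sum departed from that total by 0, 0 and -2 reads. It departed by 1433.7, -10529.1 and -14174.8 reads in the 3 null virus libraries and by 83034.4, 69613.1 and 70050.5 in the 3 USP28 virus libraries. In null virus replicates 2 and 3 only Mfn1, Mfn2, Pparg and Dgat2 had values that were not whole. Their deposited values summed to 16921.9 and 19471.2 reads, and the total, less all whole values, left 27451 and 33646 reads for these 4 genes. In scaled RPM, the same scaling without gene length, the 4 genes summed to 871, 862 and 886 in control and to 439, 425 and 436 as deposited with null virus. The reads left by the total amounted to 690 in null virus replicate 2 and 753 in replicate 3, or 79.0% and 86.2% of the control mean in place of 48.7% and 49.9%. In null virus replicate 1, where Mfn2 was whole and Cpt1b and Slc27a1 were not, the 5 genes concerned held 24405.7 reads as deposited and 22972 as left by the total. The USP28 virus libraries held 631, 684 and 669 as deposited, with Pparg and Dgat2 not whole in any of them. No sum left by the total can be given for these libraries, because further genes are not whole there. The deposited sums with null virus were thus below the deposited sums of all USP28 virus libraries. The sums left by the total, in the 2 null virus libraries that allow it, were above those deposited sums, which sets unlike quantities side by side. This arithmetic assumes that every whole value stands, and it cannot assign the difference to single genes; Mfn1 and Mfn2 made up 93.3% to 94.8% of the 4-gene sum in control. Every mitofusin result that involves the null virus group below rests on these values, while Opa1, Dnm1l and the other 6 genes do not.

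**Figure D2:**
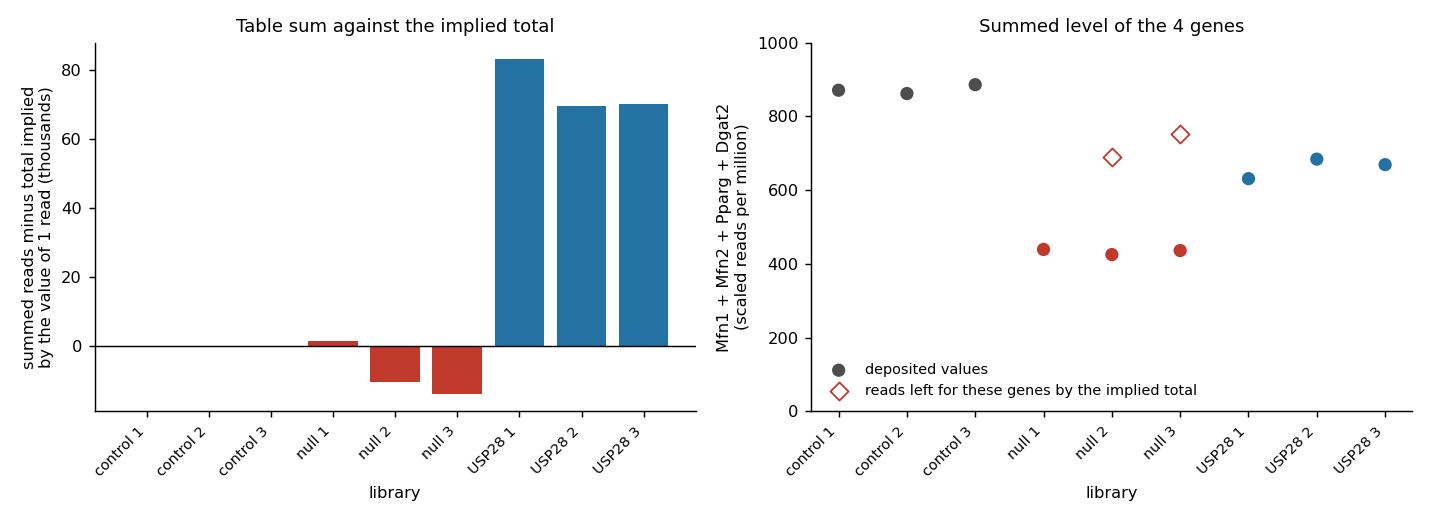
Left, reads summed over all genes minus the total implied by the value of 1 read, in kiloreads, per library (bars from 0). Right, summed scaled RPM of Mfn1, Mfn2, Pparg and Dgat2 as deposited (circles) and as left by the implied total (diamonds, null virus 2 and 3): the diamonds, at 690 and 753, lie above the USP28 virus circles and the deposited null virus values below them. The USP28 virus circles are deposited sums that hold Pparg and Dgat2 values that are not whole.

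As deposited, both mitofusins, Opa1 and Dnm1l were at 43.0% to 49.7% of the control level with null virus, while the Opa1 proteases, the Drp1 adaptors and Mtfr1l did not pass the test. The values of Opa1 and Dnm1l are all whole reads, while 3 for Mfn1 and 2 for Mfn2 are not. Summed with Pparg and Dgat2, the mitofusins were at 48.7% and 49.9% of control as deposited in null virus replicates 2 and 3. The reads left by the total put that sum at 79.0% and 86.2%. In the deposited values, 4 of 10 members were called lower and none higher, against 22.4% of all tested genes called in either direction, 12% lower and 10.4% higher, at an adjusted p under 0.05 in limma. The median log2 difference was -0.20 over the members and 0.01 over all tested genes. The groups did not overlap for 6 members, 5 lower and 1 higher, against 41.5% of all tested genes, 21.4% lower and 20.1% higher. Tissue was measured in bulk, so fewer cells of a type and less RNA per cell cannot be told apart.

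For the outer membrane, Mfn1 was at 55.7, 54.3 and 56.0 scaled RPKM in the control libraries and at 22.1, 24.0 and 25.2 as deposited with null virus. No null virus library came near any control library. The log2 difference was -1.22 (SE 0.09, 95% interval -1.42 to -1.01, adjusted p = 0.00035 in limma), and -1.17 without null virus replicate 1. Mfn2 was at 91.0, 93.6 and 95.2 in control and at 46.2, 43.8 and 44.3 with null virus, again with no overlap. Its log2 difference was -1.06 (SE 0.09, interval -1.27 to -0.84, adjusted p = 0.00067 in limma), and -1.08 without null virus replicate 1. With the values that are not whole set to missing, Mfn1 has no null virus value. Mfn2 then keeps replicate 1 alone, the library that stood apart, and its log2 difference was -1.01.

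For the inner membrane, Opa1, whose reads were all whole, was at 24.9, 26.9 and 26.7 scaled RPKM in control and at 12.1, 13.3 and 13.7 with null virus. Every null virus library was thus well under every control library. The log2 difference was -1.0 (SE 0.09, interval -1.22 to -0.79, adjusted p = 0.00077 in limma), and -0.95 without null virus replicate 1. Its stress-activated protease Oma1 was at 6.75, 7.17 and 7.67 in control and 6.14, 6.80 and 5.80 with null virus, with overlap and a log2 difference of -0.20 (adjusted p = 0.19). Its other protease Yme1l1, an ATP-dependent enzyme of the inner membrane, was at 4.53, 5.13 and 4.68 against 4.12, 3.94 and 4.34. The Yme1l1 groups did not overlap, and the difference of -0.20 did not pass (adjusted p = 0.13).

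For fission, Dnm1l was at 19.1, 19.5 and 18.6 scaled RPKM in control and at 8.23, 8.70 and 9.49 with null virus. Its reads were also all whole, and no null virus library reached a control library. The log2 difference was -1.11 (SE 0.11, interval -1.35 to -0.86, adjusted p = 0.00086 in limma), and -1.06 without null virus replicate 1. The adaptor Fis1 was the 1 member with a positive difference, at 8.68, 8.44 and 9.04 in control and 15.9, 9.77 and 10.8 with null virus. All null virus values were above all control values, and replicate 1 was far above the other null virus libraries. The log2 difference was 0.44 (SE 0.16, interval 0.07 to 0.81) and did not pass (adjusted p = 0.081 in limma). Without null virus replicate 1 it was 0.23 and passed (adjusted p = 0.044), as it did without replicate 2 (0.59, 0.040) and with scaling by library totals alone (0.42, 0.036). The adaptors Mff and Mief1 and the regulator Mtfr1l overlapped between the groups, with log2 differences of -0.19, -0.14 and -0.15 (adjusted p = 0.21, 0.54 and 0.34). At 180 to 400 reads per library, Mief1 was the shallowest member and had the widest interval relative to its difference, -0.49 to 0.21.

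**Figure D3:**
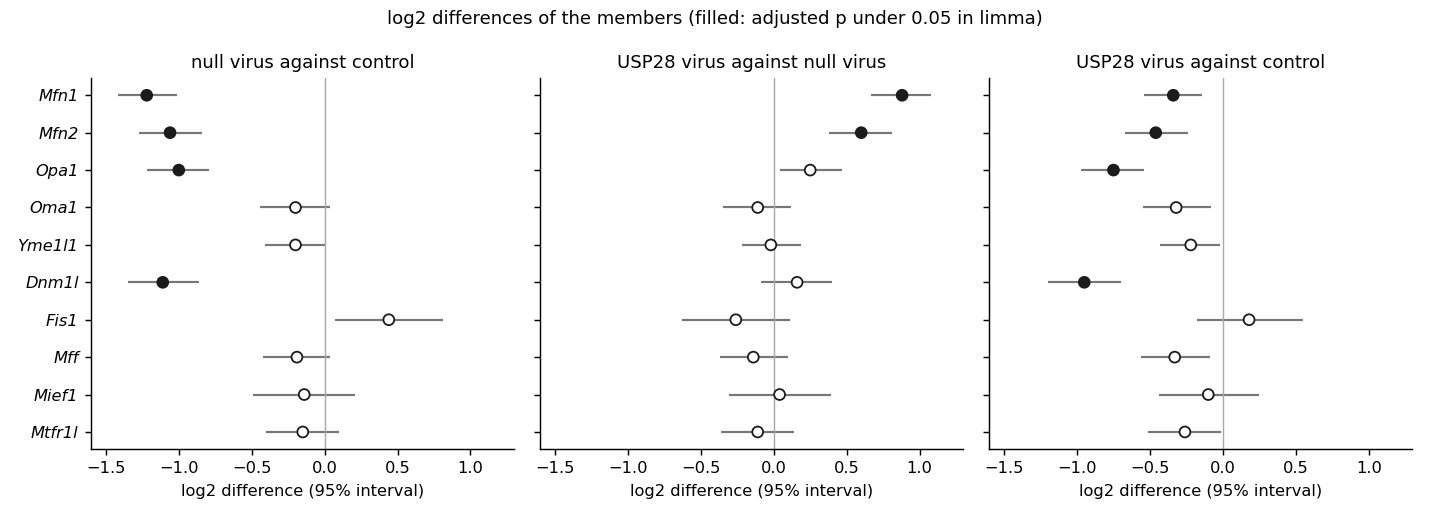
Log2 difference with 95% interval from limma for each of the 10 genes in the 3 comparisons (x axis, log2 scale; filled points have an adjusted p under 0.05). Mfn1, Mfn2, Opa1 and Dnm1l lie between -1.22 and -1.0 in null virus against control, and 2 points, Mfn1 at 0.88 and Mfn2 at 0.60, are filled in USP28 virus against null virus. Mitofusin values with null virus are as deposited, most of them not whole reads.

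Sequence before the start site is shown for the 4 genes called lower in null virus against control, since these are the stretches in which shared motifs were looked for. RefSeq promoters of GRCm38.p6, 250 bases before to 50 after a start, were matched for 10 of 10 members, in 17 entries. The 250 bases before the start nearest to the gene's own are printed 5′ to 3′ on the gene's strand, at chr3:32529232-32529481 (+) for Mfn1, chr4:147904699-147904948 (-) for Mfn2, chr16:29579084-29579333 (+) for Opa1 and chr16:16359032-16359281 (-) for Dnm1l. Capitals mark a match to the palindromic consensus of NRF1.
Mfn1: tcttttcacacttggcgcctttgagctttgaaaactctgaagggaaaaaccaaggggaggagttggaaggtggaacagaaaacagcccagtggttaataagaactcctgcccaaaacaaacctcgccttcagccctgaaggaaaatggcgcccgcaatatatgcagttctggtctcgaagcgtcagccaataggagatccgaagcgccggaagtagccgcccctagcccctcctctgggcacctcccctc
Mfn2: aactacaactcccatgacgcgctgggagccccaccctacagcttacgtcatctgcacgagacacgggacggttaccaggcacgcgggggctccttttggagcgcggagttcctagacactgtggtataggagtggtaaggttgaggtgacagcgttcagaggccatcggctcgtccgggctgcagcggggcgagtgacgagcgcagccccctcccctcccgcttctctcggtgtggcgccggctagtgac
Opa1: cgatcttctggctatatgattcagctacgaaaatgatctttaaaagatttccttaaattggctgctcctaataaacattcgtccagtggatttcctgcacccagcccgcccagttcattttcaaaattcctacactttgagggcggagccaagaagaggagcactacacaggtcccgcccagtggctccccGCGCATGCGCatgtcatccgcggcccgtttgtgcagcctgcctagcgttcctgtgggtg
Dnm1l: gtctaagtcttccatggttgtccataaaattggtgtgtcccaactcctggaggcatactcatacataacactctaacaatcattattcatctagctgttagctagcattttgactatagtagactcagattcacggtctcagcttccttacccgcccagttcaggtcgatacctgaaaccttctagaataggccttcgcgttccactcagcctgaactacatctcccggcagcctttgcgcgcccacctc
Both strands were searched for 4 motifs. The NRF1 consensus was found in 0.971% of 32851 promoters and, among the members, once, in Opa1. The direct repeat with a spacing of 1 base that PPAR:RXR binds (0.0396% of promoters), TCAAGGTCA, bound by estrogen-related receptors (0.423%), and CACGTG, an E-box (7.15%), were in none of the 17 member entries. Over the whole windows, bases after the start included, GC content was 55.3% for Mfn1, 64.7% for Mfn2, 53.3% for Opa1 and 53.0% for Dnm1l, against a median of 52.7% over all promoters. They held 12, 27, 18 and 14 CpG dinucleotides, against a median of 7. These are the entries nearest to the genes' own starts. The other Dnm1l entry had 70.3% GC and 33 CpG dinucleotides, and the other Mfn2 entries had 67.3% and 62.3% with 31 and 22. The genes themselves span, as deposited, chr3:32529465-32579239 (Mfn1), chr4:147873599-147904704 (Mfn2), chr16:29579334-29654884 (Opa1) and chr16:16312235-16359030 (Dnm1l). The Dnm1l span differs from that in GENCODE M21, the other spans are identical to it, and all are protein coding there.

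As deposited, the mitofusins were higher with USP28 virus than with null virus and the other 8 members did not pass the test. Here 2 of 10 members were called higher and none lower, against 0.553% of all tested genes called in either direction, 0.34% higher and 0.213% lower. Both calls rest on null virus values of which 3 for Mfn1 and 2 for Mfn2 are not whole reads. With Pparg and Dgat2, the mitofusins summed to 690 and 753 scaled RPM as left by the total in null virus replicates 2 and 3. The deposited sums, an unlike quantity, were 439, 425 and 436 with null virus and 631, 684 and 669 with USP28 virus. The median log2 difference was 0.01 over the members, as over all genes. The groups did not overlap for 3 members, all higher, against 23.4% of all tested genes, 11.8% higher and 11.6% lower. This comparison shares its null virus libraries with the one above, so a value that is low in those libraries enters both.

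Mfn1 was at 42.2, 42.1 and 46.8 scaled RPKM with USP28 virus, all above the deposited null virus values of 22.1 to 25.2. The log2 difference was 0.88 (SE 0.09, interval 0.67 to 1.08, adjusted p = 0.022 in limma), and 0.82 without null virus replicate 1 (adjusted p = 0.0012). Mfn2 was at 62.7, 75.3 and 66.1, all above 43.8 to 46.2 with null virus. Its log2 difference was 0.60 (SE 0.09, interval 0.38 to 0.81, adjusted p = 0.041), and 0.61 without null virus replicate 1 (adjusted p = 0.0068). The USP28 virus values of both genes were whole reads, and 5 of the 6 null virus values were not. With those 5 set to missing, Mfn1 could not be compared and Mfn2 kept null virus replicate 1 alone (0.55), so neither call stands there. The calls were also lost with the replicate numbers as a block, with the control group out of the fit, and without USP28 virus replicate 1, 2 or 3, control replicate 2 or null virus replicate 2 or 3 (Mfn1 0.82 to 0.96, Mfn2 0.52 to 0.68 over all settings run). Mfn2 alone also lost it without the filter and without control replicate 1 or 3.

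Opa1 was at 14.1, 16.2 and 16.3 scaled RPKM with USP28 virus, above all 3 null virus libraries by a small margin. The log2 difference of 0.25 (SE 0.09, interval 0.04 to 0.47) did not pass (adjusted p = 0.24 in limma). Dnm1l was at 8.49, 10.9 and 10.2 and overlapped the null virus group (0.16, interval -0.09 to 0.40, adjusted p = 0.48). Fis1, at 9.91, 9.52 and 10.3, overlapped as well (-0.26, interval -0.63 to 0.11, adjusted p = 0.44). For Oma1, Yme1l1, Mff, Mief1 and Mtfr1l the log2 differences ran from -0.14 to 0.04, with adjusted p from 0.51 to 0.94 and overlapping groups. The widest of their intervals, that of Mief1, ran from -0.31 to 0.39.

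In the comparison of USP28 virus with control, the mitofusin values of both groups are whole. The null virus values that are not enter only through the shared estimate of spread and, as part of all tested genes, the scaling. The same 4 genes were lower, the mitofusins by less than Opa1 and Dnm1l: 4 of 10 members fell and none rose, against 11.9% of all tested genes called in either direction, 6.24% lower and 5.69% higher. The median log2 difference was -0.32 over the members and 0.01 over all tested genes. The groups did not overlap for 9 members, 8 lower and 1 higher, against 45.8% of all tested genes, 23.1% lower and 22.7% higher. It shares its control libraries with the first comparison.

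Dnm1l stood at 51.8% of the control mean (log2 difference -0.95, SE 0.11, adjusted p = 0.0030 in limma) and Opa1 at 59.3% (-0.75, SE 0.09, adjusted p = 0.0038). Both passed in all 21 alternatives run, in this comparison and in null virus against control. Mfn2 stood at 73.0% (-0.46, SE 0.09, adjusted p = 0.019) and Mfn1 at 79.0% (-0.34, SE 0.09, adjusted p = 0.040). Mfn2 lost its call in 4 of 21 alternatives, those without control replicate 2 or 3 or USP28 virus replicate 1 or 3 (adjusted p up to 0.092). Mfn1 lost it in 11 of 21 (adjusted p up to 0.23): with the values that are not whole set to missing (-0.34, adjusted p = 0.061), with library totals alone, without the filter, with the replicate block, without any 1 control or USP28 virus library and without null virus replicate 2. Mfn2 passed with those values set to missing (-0.46, adjusted p = 0.038). Both kept their direction in all 21. Null virus replicate 1 is in neither group and enters through the filter, the scaling and the shared estimate of spread. Without it the 4 differences were -0.96, -0.76, -0.46 and -0.35. Oma1 (-0.32, adjusted p = 0.038) and Mff (-0.34, adjusted p = 0.020) then passed too, as they did with these 2 groups alone. With all libraries, Oma1 at 5.39, 5.55 and 6.38 scaled RPKM (-0.32, adjusted p = 0.085) and Mff at 2.46, 2.68 and 2.61 (-0.33, adjusted p = 0.073) lay below every control library and did not pass. Yme1l1 (-0.22), Mtfr1l (-0.26), Mief1 (-0.10) and Fis1 (0.18) had adjusted p from 0.15 to 0.73.

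**Figure D4:**
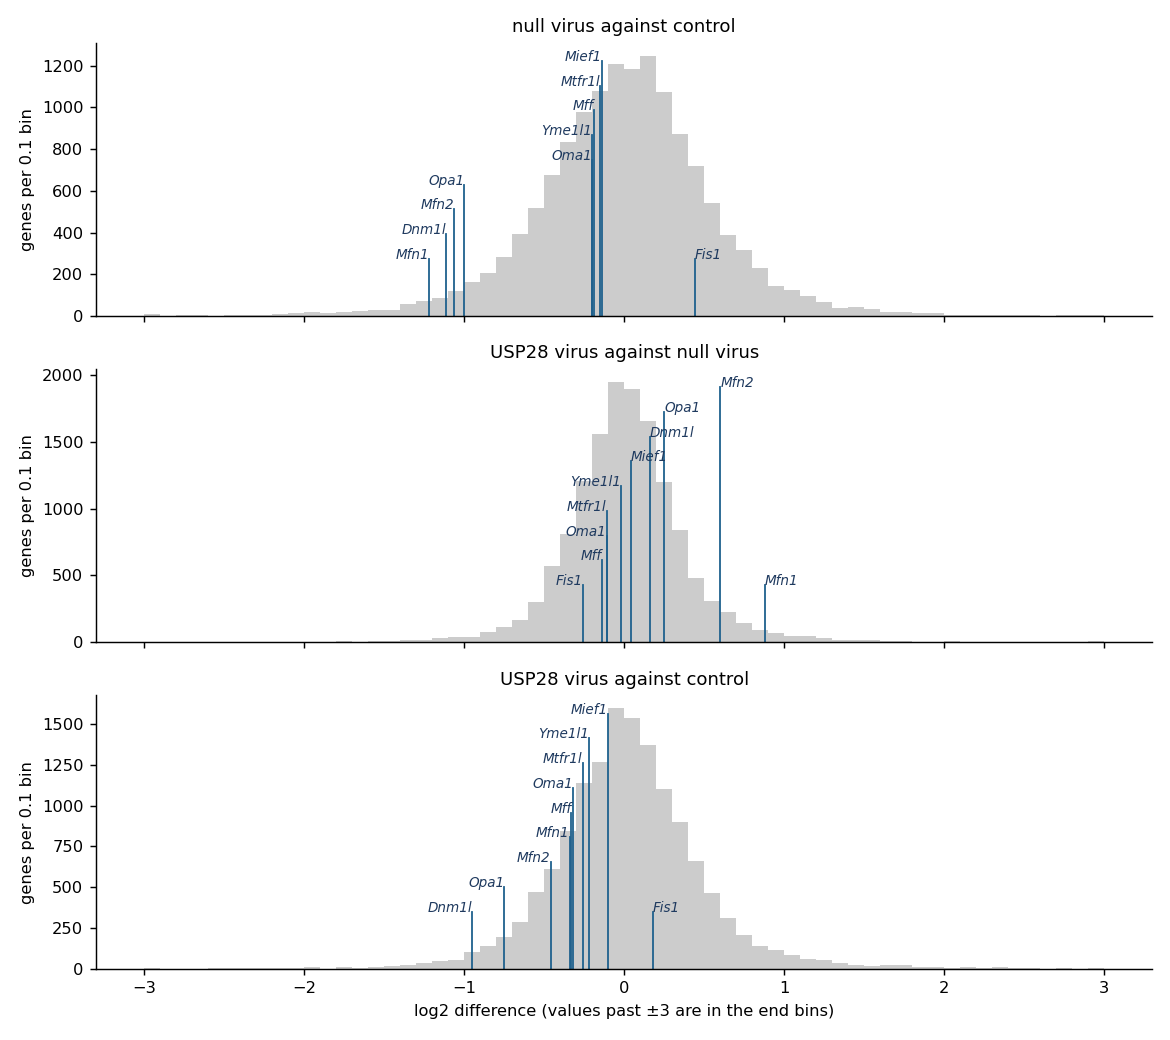
Histograms of the log2 differences of all 14104 tested genes (grey, genes per 0.1 bin) in the 3 comparisons, with a line at the value of each of the 10 genes; line heights carry no value. In the top panel Mfn1, Mfn2, Opa1 and Dnm1l sit in the lower tail apart from the other 6 genes, and in the bottom panel Dnm1l (-0.95) and Opa1 (-0.75) lie farther out than Mfn2 (-0.46) and Mfn1 (-0.34). Mitofusin values with null virus are as deposited.

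Ratios within a library do not depend on scaling between libraries. Mfn2 to Mfn1 was 1.63, 1.73 and 1.70 in control, 2.09, 1.82 and 1.76 with null virus and 1.49, 1.79 and 1.41 with USP28 virus. The null virus values, which hold the values that are not whole, were above control (exact permutation p = 0.1, two-sided, the smallest that 3 against 3 can give), and the USP28 virus and control groups overlapped. Opa1 to Dnm1l, an inner membrane fusion to fission ratio free of such values, was 1.31, 1.38 and 1.43 in control, 1.47, 1.53 and 1.44 with null virus and 1.66, 1.49 and 1.60 with USP28 virus. It was higher in every db/db library than in any control library (exact permutation p = 0.1 for each group against control), by 0.11 and 0.20 on the log2 scale. Oma1 to Yme1l1 overlapped between all groups (means 1.51, 1.52 and 1.41 in control, null virus and USP28 virus).

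The genes closest to a member in pattern were ranked by the root mean square distance between log2 values centred on each gene's mean over the 9 libraries. Tested genes with predicted-gene names (Gm and a number, or ending in Rik) were left out of the ranks and medians. For Mfn1 they included Ppp1r14c (0.114), Arhgef19 (0.117), Ptprs (0.143) and Mfn2 (0.155), where the median ranked gene was at 0.565. For Mfn2 they were Zyg11b (0.074), Ppp1r14c (0.092), Intu (0.102), Ap1b1 (0.105) and Igsf1 (0.106), with a median of 0.495. For Opa1 they were Pcyt1a (0.057), Mmab (0.059), Rtn4ip1 (0.067), Narf (0.073) and Larp4b (0.078), with a median of 0.492. Ppp1r14c, whose mean level went from 27.2 scaled RPKM in control to 12.6 with null virus and 21.7 with USP28 virus, was near to both mitofusins. Among the members, Dnm1l was nearest to Opa1 (0.097, rank 14 of the genes ranked), and Mfn1 to Mfn2 (0.155, rank 35). The libraries are shared by all genes, and these distances are a description; the mitofusin patterns include the values that are not whole.

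Other genes of mitochondrial dynamics, their regulators and general mitochondrial genes were counted from lists. Of all tested genes, 12% were called lower and 10.4% higher with null virus against control, and 6.24% and 5.69% with USP28 virus against control. A list with counts near these shares is not set apart by them. Between the virus groups, none of these genes passed in limma. At an unadjusted p under 0.05 4 of 17 further fusion and fission genes, 3 of 10 cristae genes and 2 of 9 genes of ubiquitin control were lower, 1 of 7 transport genes was higher, 3 of 13 regulators were higher and 3 lower, and 0 of 11 content genes passed; over all tested genes the count was 2356 of 14104. With limma voom, 1 gene each passed for cristae, ubiquitin control and regulators. Of 17 tested genes of a list of 20 further fusion and fission genes, 2 rose and 1 fell with null virus against control, and 1 rose and 1 fell in USP28 virus against control (medians 0.02 and -0.11). Inf2, an actin-assembling formin that aids fission, was at 5.56 ± 1.40 scaled RPKM with null virus and 6.44 ± 0.739 with USP28 virus, and at 2.83 ± 0.0363 in control (from control, log2 differences of 0.91 and 1.15, adjusted p = 0.0099 and 0.0083 in limma). Mtfr1, a paralog of Mtfr1l, was at 3.55 ± 0.0517, 2.80 ± 0.0592 and 2.26 ± 0.106 (-0.33 and -0.63 from control, adjusted p = 0.027 and 0.0052). Spg7, a subunit of an inner membrane AAA protease, rose with null virus (0.36, adjusted p = 0.019). Of 10 genes of cristae organisation, 1 fell with null virus against control, Dnajc11 (-0.61, adjusted p = 0.0091), and 2 fell in USP28 virus against control, the MICOS subunits Immt (-0.39, 0.028) and Apool (-0.46, 0.040).

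Of 7 tested genes that move and tether mitochondria, 5 fell and none rose with null virus against control, and 6 fell with USP28 virus against control (medians -0.54 and -0.63). Of all tested genes, 12% and 6.24% fell in these comparisons. With scaling by library totals alone 3 and 1 fell (medians -0.56 and -0.57). The kinesin adaptor Trak2 had control values of 26.8 ± 1.11 scaled RPKM, 13.1 ± 3.38 with null virus and 12.6 ± 0.894 with USP28 virus (-1.06 and -1.09 from control, adjusted p = 0.0045 and 0.0083). Trak1, of the same family, differed by -0.84 and -0.49 (adjusted p = 0.0033 and 0.039) and the outer membrane GTPase Rhot2 by -0.52 and -0.76 (0.037 and 0.016).

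Of 9 tested genes of the ubiquitin control of mitofusins and of mitophagy, 2 rose and 1 fell with null virus against control, and 1 fell in USP28 virus against control. The shares of all tested genes were 10.4% higher and 12% lower with null virus, and 5.69% and 6.24% with USP28 virus, each against control. Pink1, a kinase that starts the removal of damaged mitochondria, was at 92.8 ± 2.76 scaled RPKM in control and 135 ± 0.610 with null virus (0.55, adjusted p = 0.0032). The mitophagy receptor Bnip3 was at 55.2 ± 4.28 and 113 ± 18.0 (1.03, adjusted p = 0.0018). The ubiquitin ligase Mul1 fell in USP28 virus against control (-0.44, adjusted p = 0.029). Of 13 transcriptional regulators of mitochondrial genes, 7 fell and 1 rose with null virus against control, and 2 fell in USP28 virus against control (medians -0.63 and -0.39). Ppara, a nuclear receptor for fatty acids, differed by -1.36 with null virus (adjusted p = 0.0067) and the coactivator Ppargc1b by -1.09 (0.0084), while Nrf1 rose by 0.67 (0.0085). With USP28 virus against null virus, Ppara was at 0.92 (adjusted p = 0.13), and 2 of its 3 USP28 virus values are not whole reads.

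Genes of general mitochondrial content and of cell types were counted in the same way. Beside these counts, 12% of all tested genes fell and 10.4% rose with null virus against control, and 6.24% fell and 5.69% rose with USP28 virus against control. Of 11 content genes, 2 fell with null virus against control, the chaperonin Hspd1 (-0.42, adjusted p = 0.020) and the complex I subunit Ndufs1 (-0.39, 0.027), and 1, Hspd1, fell in USP28 virus against control (-0.50, 0.017). Their summed level was 2110 to 2290 scaled RPKM (control), 2240 to 2690 (null virus) and 2020 to 2180 (USP28 virus), and the share of reads from the mitochondrial genome was 15.74% to 19.94% over the 9 libraries. Of 9 cardiomyocyte markers, 1 fell with null virus and 1 with USP28 virus against control, Actc1 both times. Of 7 endothelial markers, 4 rose with null virus and 3 with USP28 virus against control, and their sum was 76.8 to 88.7 in control, 98.4 to 124 with null virus and 106 to 123 with USP28 virus. Of 6 smooth muscle and pericyte markers, 1 and 2 rose against control (sums 186 to 231, 199 to 251 and 238 to 282). Of 6 macrophage markers, 3 and 1 fell (21.7 to 26.8, 15.6 to 19.7 and 16.3 to 19.9), and of 7 fibroblast markers, 4 and 1 fell (94.2 to 111, 96.9 to 109 and 103 to 115). The neutrophil gene S100a9 differed from control by -2.39 with null virus and -3.52 with USP28 virus (adjusted p = 0.0046 and 0.0030). Between the virus groups 1 marker passed, the fibroblast gene Lum, whose scaled RPKM was 3.67 ± 0.431 with USP28 virus, 1.78 ± 0.0927 with null virus and 4.55 ± 0.684 in control (USP28 virus against null virus 1.0, adjusted p = 0.027). The Lum call was lost with 2 groups alone, with the replicate block and without control replicate 2, where no gene passed. The same held without null virus replicate 2 or 3 and without any 1 USP28 virus library. The part of these content genes and markers in the levels of the 10 genes was not tested.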

How the data were processed

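Polyadenylated RNA was made into directional paired-end libraries, per the labels' protocols. The authors deposited RPKM values per gene with gene length. HISAT2, DESeq2 and the build GRCh38 are named per the submitters' processing notes, with no version or role. The symbols and spans are mouse, 25445 of 30128 genes having spans identical to GENCODE M21, so positions are on GRCm38. The spans of Dnm1l and Mief1 are not among these. Which program counted the reads, and with what strand setting, is not stated, so reads of overlapping antisense genes (Gm49521 with Dnm1l, for which no read value was obtained; C430014B12Rik with Mff, at most 365 reads) cannot be told apart.

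Reads were recovered by dividing RPKM times length by the value of 1 read. A floor of 3 reads is 0.053 to 0.083 CPM, and this limit covers counting error only. RPKM was divided by a trimmed mean of M values per library (30% of ratios and 5% of levels trimmed), and genes of at least 0.5 RPKM in at least 3 libraries entered limma 3.58.1 (R 4.3.3; trended, robust prior) on log2(scaled RPKM + 0.1), so fold changes of low genes are understated. All 9 libraries shared 1 fit, with Benjamini-Hochberg adjustment over 14104 genes and a threshold of 0.05. The fit was tested on simulated whole reads with the same spread for every gene and library and no outlying library. That test therefore does not cover null virus replicate 1 or the values that are not whole. Exact permutation tests were two-sided. Tables and figures used Python 3.11.15, pandas 2.3.3, numpy 2.4.6 and matplotlib 3.10.9.

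Members and lists were chosen with earlier results of these data known. Named besides the members were Usp28, up to 3 genes of each list with the smallest p past the threshold, the 5 genes nearest to Mfn1, Mfn2 and Opa1, and all genes with values that are not whole; marker genes beyond these were named after their values were seen. Of the lists, March5 had no row of that name. An item that the naming rule gives is not reported here. No pair of libraries within a group was identical, with chi-square per degree of freedom of 19.3 to 146. Alternatives were other scalings, filters and pseudocounts, limma voom on recovered reads, 2 groups alone, a replicate block, values that are not whole set to missing and each library left out. Replicates with the same number did not deviate together (correlations of -0.03 to 0.06).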

Additional observations from a re-analysis of the deposited data

How the results depend on the processing

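Over 21 alternatives no value named for a member that passed the test changed direction, and 3 replicates a group limit what can be called. Without the filter, 2054, 10 and 928 genes passed for null virus against control, USP28 virus against null virus and USP28 virus against control (3154, 78 and 1682 as reported), and 1 member passed in the second. With the 2 groups alone the counts were 1697, 0 (1770 at an unadjusted p under 0.05 in limma) and 3875. Library totals alone gave 31 and 921 in the last 2, with 12.9% and 33.6% of them lower in place of 38.5% and 52.3%. Voom gave 194 in the second. Leaving out each library gave 1441 to 4473, 0 to 948 and 368 to 4121 genes; the highest was without null virus replicate 1 in each. These left 4 to 5, 0 to 2 and 2 to 6 members called. With values that are not whole set to missing, 3, 0 and 3 members were called, and 0 in the second with 2 groups alone. The replicate block, though the numbers do not pair the samples, called 4, 0 and 3 members and 2783, 0 (2330 unadjusted) and 1286 genes. Where a count changed, the cause was not tested.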
